A study of Mus musculus with 6 samples.

Results

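The ErbB family of growth factor receptors, several of its ligands and its feedback inhibitor were followed in mouse left lungs, naive or injured by ischemia and reperfusion. The 10 genes were the rows of the deposited table with the symbols Areg, Ereg, Hbegf, Tgfa, Btc, Nrg1, Egfr, Erbb2, Erbb3 and Errfi1. All 10 were present among 23194 genes. Both groups were adult wild type C57BL/6 mice. The 3 naive lungs carry the treatment label control and no mention of an operation. In the 3 injured lungs the left pulmonary artery had been ligated for 4 h and then released for 24 h of reperfusion. Ischemia and the operation therefore cannot be told apart. A mouse has a single left lung, so the 3 lungs of a group were counted as 3 animals. The labels do not state which animal each lung came from. The p-values weigh group differences against the spread between these samples. The material was whole lung, in which fewer cells of a type and less RNA per cell cannot be told apart.

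EGFR ligands are made as membrane-anchored precursors that metalloproteinases, above all ADAM17, cut from the cell surface. The released ligand pairs receptor molecules, whose kinases then start the RAS, ERK and PI3K cascades. Amphiregulin, transforming growth factor alpha, heparin-binding EGF, betacellulin and epiregulin bind EGFR, and some of them also ERBB4. Neuregulins bind ERBB3 and ERBB4. ERBB2 has no known ligand of its own and serves as the preferred partner of the other receptors, and ERBB3 has a weak kinase. In the lung the pathway is known for epithelial repair after injury and for the upkeep of the airway epithelium.

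Libraries held 18913487 to 34986276 gene counts, so that 1 count was worth 0.0293 to 0.0529 CPM (counts scaled to a common TMM-adjusted library size). Naive and injured lungs separated on the main principal component, which held 42.3% of the variance. Lung identity was present in every library, with Sftpc, the type 2 cell surfactant gene, at 15756 ± 1021 CPM in the naive group and 14305 ± 643 CPM in the injured group (SD, n = 3 each). Markers of recruited blood cells differed between the groups. Of 10 neutrophil markers 9 were called higher in injured lungs, and their summed level ran from 61.6 to 97.2 CPM in naive and from 638 to 1392 CPM in injured lungs. Of 10 monocyte and macrophage markers 7 were called higher, with sums of 302 to 356 CPM and 458 to 497 CPM. Among markers of resident cells, 1 of 9 for alveolar macrophages was called higher, Chil3. Without it the sums overlapped (415 to 492 CPM in naive, 475 to 532 CPM in injured). Of the 9, 3 had an unadjusted p under 0.05 and 3 were higher in every injured lung. Beside Chil3 these were Marco (14.9 to 19.5 CPM in naive, 38.4 to 104.7 CPM in injured) and Atp6v0d2 (44.7 to 47.9 and 55.7 to 58.3 CPM). Of 9 ciliated cell markers 1 was called lower, Tppp3, and without it the sums overlapped (181 to 234 CPM in naive, 188 to 246 CPM in injured). Chil3, Marco, Atp6v0d2 and Tppp3 were singled out after their values were seen. Sums of alveolar type 1 and type 2, club, mesothelial, fibroblast and heart muscle markers overlapped between the groups. Of these markers edgeR called 1 lower, for fibroblasts, and 0 higher. Of 10 fibroblast markers 2, Npnt and Tcf21, were lower in every injured lung. Of 10 type 2 markers 5, Sftpb, Sftpa1, Abca3, Napsa and Sftpd, were higher in every injured lung, and 4 had an unadjusted p under 0.05. Of 10 type 1 markers 1 was higher and 2 were lower in every injured lung, and 2 had such a p. The same counts held for the 9 mesothelial markers. Of 9 tested heart muscle markers 1 was lower in every injured lung, and of 10 club markers 0 were higher or lower in every injured lung. The shares over all genes tested were 10.6% lower, 12.3% higher and 16.7% with such a p. The fibroblast and type 2 genes were named after their values were seen. Sums of endothelial markers did not overlap (6137 to 6414 CPM in naive, 5136 to 6041 CPM in injured). Of these 10 markers 0 were called by edgeR, 1 had an unadjusted p under 0.05 and 2, Pecam1 and Cdh5, were lower in every injured lung. None of the listed markers was at 0 in all 6 libraries. Siglecf and Cfap126 were not found under those symbols.

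Of the 10 genes, 9 passed the filter on low counts and were tested with edgeR's quasi-likelihood test, with p-values adjusted over all 15486 genes that passed. Calls were made at adjusted p below 0.05. Areg was called lower in injured lungs, and 0 of the 9 were called higher. Over all genes tested 3.11% were called, 2.16% higher and 0.956% lower. At an unadjusted p under 0.05 there were 3 genes, Areg, Hbegf and Erbb2, against 16.7% of all genes tested. The same 3 genes had groups that did not overlap in CPM, Hbegf and Erbb2 with all injured lungs higher and Areg with all injured lungs lower. Over all genes tested 12.3% had every injured lung higher and 10.6% every injured lung lower. The median log2 fold change of injured over naive lungs was 0.10 for the 9 genes and -0.00096 for all genes tested. DESeq2 called 1 of the 10 genes higher, Hbegf, and 1 lower, Areg, and limma-voom called 0 higher and 1 lower.

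**Figure D1:**
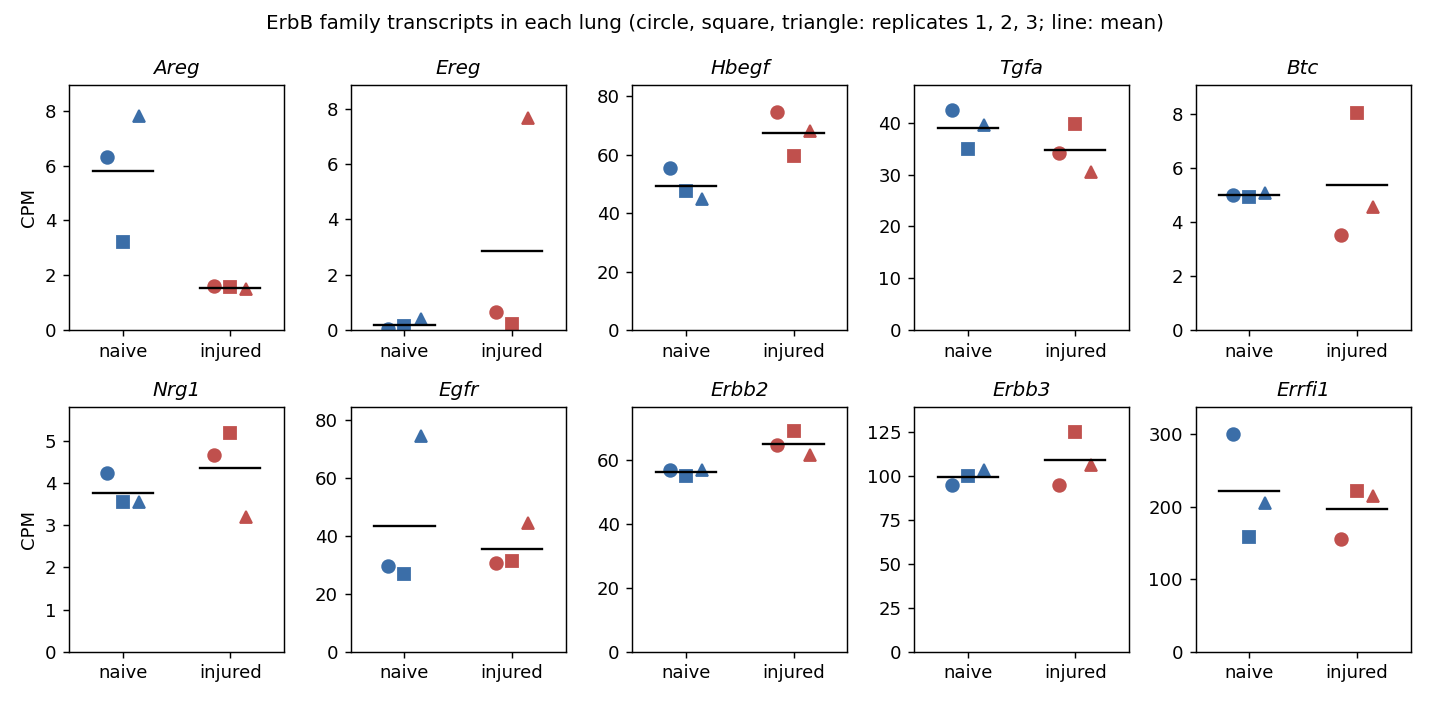
Levels of the 10 ErbB family transcripts in each of the 6 lungs in CPM (linear axes from 0, a separate scale for each gene), with replicates 1, 2 and 3 as circle, square and triangle and the group mean as a line. The 3 injured lungs lie between 1.48 and 1.59 CPM for Areg, below all naive lungs, while single lungs stand apart for Ereg (injured replicate 3, 7.68 CPM), Egfr (naive replicate 3, 74.4 CPM) and Errfi1 (naive replicate 1, 300.0 CPM).

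Areg encodes amphiregulin, a low-affinity EGFR ligand made by epithelial cells and by several immune cells, among them group 2 innate lymphoid cells and regulatory T cells. The gene lies on chromosome 5 from 91139615 to 91148432 on the plus strand (mm10 coordinates of the table). It had 188, 61 and 267 counts in naive replicates 1, 2 and 3 and 32, 35 and 35 counts in injured replicates 1, 2 and 3. Scaled to library size, the naive lungs stood at 6.32, 3.23 and 7.81 CPM and the injured lungs at 1.59, 1.55 and 1.48 CPM. Every injured lung was below every naive lung, and the naive lungs were spread 2.42-fold against 1.08-fold among the injured. The mean fell from 5.79 ± 2.34 to 1.54 ± 0.0567 CPM (SD, n = 3 each), a log2 fold change of -1.92 ± 0.33 (SE; 95% confidence interval -2.66 to -1.19; edgeR adjusted p = 0.0146). Naive lungs thus held 3.79 times the Areg of injured lungs. By the size of its change Areg ranked at position 139 of the 15486 genes tested. The authors' deposited table gives a log2 fold change of -1.17 with an adjusted p of 4.38e-06. DESeq2 run here on the same counts gave -1.93 (DESeq2 adjusted p = 4.68e-06). The settings behind the authors' value are not known here, so the sizes cannot be compared directly. Without injured replicate 1 or 2 the call was lost, at log2 fold changes of -1.94 (edgeR adjusted p = 0.0669) and -1.93 (edgeR adjusted p = 0.0510). Over the 15 other settings its log2 fold change ran from -2.31, with a circadian clock score as a covariate, to -1.65, when naive replicate 3 was left out.

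Markers of immune cells that are known to make amphiregulin were looked at beside Areg. The summed level of 10 markers of group 2 innate lymphoid and regulatory T cells ran from 32.6 to 44.0 CPM in naive and from 31.3 to 38.0 CPM in injured lungs, and 0 of 7 tested were called by edgeR, with 1 at an unadjusted p under 0.05. That marker was Il7r, the interleukin 7 receptor gene, singled out after its values were seen. It stood at 13.8, 14.7 and 9.74 CPM in the naive and at 7.14, 7.84 and 7.80 CPM in the injured lungs. Il7r was lower in every injured lung (log2 fold change -0.74 ± 0.18 SE, edgeR adjusted p = 0.0582). Of the 7 tested markers it was the only 1 whose groups did not overlap, and their median log2 fold change was -0.040. Foxp3, which defines regulatory T cells, stood at 0.541 ± 0.288 and 0.439 ± 0.252 CPM (SD, n = 3 each). Of the summed level of 10 basophil and mast cell markers 97.7% came from Gata2 and Hdc, which other cells also express. The remaining 8 summed to 3.87 to 6.91 CPM in naive and 5.32 to 8.73 CPM in injured lungs, with 6 and 5 counts in all for Mcpt8, the basophil protease. The part of these cells in the level of Areg was not tested.

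The promoter of Areg is shown because Areg was the only one of the 9 tested genes to be called, together with those of Btc, its neighbour on chromosome 5, and of Errfi1, which shares its longest motif. RefSeq windows (GRCm38.p6, the assembly of mm10) from 250 bases before to 50 bases after a start site were matched by symbol for 6 of the 10 genes, in 7 windows. Only the 250 bases before the start are printed, 5′ to 3′ on the gene's strand. Capitals mark matches, on either strand, to 6 motifs. The cyclic AMP response element was searched as TGACGTCA and its core, which lies inside the full element, as TGACG. The AP-1 element was searched as TGANTCA and the core of the hypoxia response element as ACGTG. The site of TEAD factors was searched as GGAATG and the TATA box as TATAAA. Overlapping matches merge into a single run of capitals.
Areg promoter, chr5:91139349-91139598, plus strand: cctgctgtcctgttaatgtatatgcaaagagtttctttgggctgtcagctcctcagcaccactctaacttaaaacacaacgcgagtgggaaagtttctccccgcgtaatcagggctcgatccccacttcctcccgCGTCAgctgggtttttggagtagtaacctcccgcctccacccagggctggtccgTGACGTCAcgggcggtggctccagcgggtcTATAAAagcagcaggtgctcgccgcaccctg
Btc promoter, chr5:91402995-91403244, minus strand: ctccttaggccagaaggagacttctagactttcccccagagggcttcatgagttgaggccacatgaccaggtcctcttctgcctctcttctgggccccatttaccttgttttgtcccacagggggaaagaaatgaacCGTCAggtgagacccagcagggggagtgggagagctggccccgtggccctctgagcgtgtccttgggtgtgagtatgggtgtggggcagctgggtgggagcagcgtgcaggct
Errfi1 promoter, chr4:150854820-150855069, plus strand: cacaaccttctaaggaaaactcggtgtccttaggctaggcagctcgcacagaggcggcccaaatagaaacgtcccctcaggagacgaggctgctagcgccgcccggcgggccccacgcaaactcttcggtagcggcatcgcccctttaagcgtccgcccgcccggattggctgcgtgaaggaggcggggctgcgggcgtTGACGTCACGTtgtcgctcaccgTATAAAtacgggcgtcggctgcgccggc

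The Areg window held TGACGTCA with its leftmost base at position -61 from the start site, a TATAAA at position -31 and a further TGACG core, read on the other strand, at position -115. TGACGTCA was present in 1.79% of 32851 mouse promoter windows of this length, TGACG in 20.8%, and TATAAA in 13.6%. Of the 7 windows, 2 held TGACGTCA, those of Areg and of the downstream of a pair of Errfi1 start sites (position -51, with TATAAA at position -28 and an overlapping ACGTG core on the other strand at position -45). ACGTG was in 19.6% of all windows. The Btc window held a TGACG core at position -113 and none of the other motifs. Windows of Tgfa and Egfr held no match to the 6 motifs, Erbb2 a TGACG core and a GGAATG (14.7% of all windows), and the other Errfi1 window a GGAATG. None of the 7 windows held TGANTCA, which was in 7.81% of all windows. These matches describe letters and not binding.

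Areg sits in a cluster of EGFR ligand genes on chromosome 5, so its neighbours give the levels of nearby genes in the same libraries. In the table's coordinates the order is Epgn (91027464 to 91035215), Ereg (91074617 to 91093649), Areg and Btc (91357261 to 91402994, on the minus strand). The span from Epgn to Btc is 376 kb, with 39.4 kb between Epgn and Ereg, 46.0 kb between Ereg and Areg and 209 kb between Areg and Btc. None of these neighbours was lower in every injured lung, as Areg was. Only Btc was tested in this fit, so the low counts of Ereg and Epgn say little. Ereg, which encodes epiregulin, a ligand of EGFR and ERBB4 that macrophages and epithelium can make, had 1, 3 and 13 counts in the naive replicates and 13, 5 and 182 in the injured replicates. In CPM these were 0.0336, 0.159 and 0.380 in naive and 0.645, 0.222 and 7.68 in injured lungs. The groups overlapped, and a single injured lung, replicate 3, stood far above the other 5. Ereg did not pass the filter and has no test in this fit. The ratio of mean CPM, injured over naive, was 14.9 with all libraries and 2.27 when injured replicate 3 was left out. It was 29.6 when naive replicate 3 was left out, and between 10.6 and 21.8 without any of the other 4. With no filter edgeR gave Ereg a log2 fold change of 3.82 ± 1.79 (SE, edgeR adjusted p = 0.520), and DESeq2 gave 3.89 ± 1.55 (DESeq2 adjusted p = 0.134). Injured replicate 3 had the lowest summed level of neutrophil markers of the injured lungs, 638 CPM against 1392 and 1158 CPM, and 463 CPM of monocyte and macrophage markers against 458 and 497 CPM. Of 10 type 2 markers 7, and of 10 club and airway secretory markers 4, were highest in injured replicate 3. Bpifa1, an airway secretory marker singled out after its values were seen, stood at 714 CPM there and at 4.79 to 130 CPM in the other 5 lungs. The part of any of these cells in the level of Ereg was not tested.

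Btc encodes betacellulin, a ligand of EGFR and ERBB4. It stood at 5.01, 4.92 and 5.06 CPM in the naive lungs and at 3.52, 8.02 and 4.56 CPM in the injured lungs. The injured lungs lay on both sides of the closely grouped naive ones, with a 2.28-fold spread against 1.03-fold. The log2 fold change was 0.10 ± 0.29 (SE; 95% confidence interval -0.54 to 0.74; edgeR adjusted p = 0.900), and it was -0.30 without injured replicate 2. Epgn, the epithelial mitogen gene at the edge of the cluster, had 0 counts in each naive library and 2, 3 and 1 counts in the injured ones, too few for a test.

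Hbegf encodes heparin-binding EGF, which macrophages, endothelium and epithelium make. It lies on chromosome 18 from 36504929 to 36515805. The naive lungs stood at 55.5, 47.6 and 44.7 CPM and the injured lungs at 74.8, 59.4 and 68.0 CPM. All injured lungs were above all naive lungs, by a small margin between injured replicate 2 and naive replicate 1. The means were 49.3 ± 5.56 and 67.4 ± 7.69 CPM (SD, n = 3 each), and the log2 fold change of 0.45 ± 0.12 (SE; 95% confidence interval 0.19 to 0.71) missed the threshold (edgeR adjusted p = 0.0750). DESeq2 (0.45, DESeq2 adjusted p = 0.0231), edgeR with no filter on low counts (0.45, edgeR adjusted p = 0.0278) and the authors' deposited table (0.41, adjusted p 0.0230) put it past the threshold. Over the other settings the adjusted p of Hbegf reached 0.258, without naive replicate 2. All 10 neutrophil markers and 9 of 10 monocyte and macrophage markers were higher in every injured lung as well, and the part of these cells in the level of Hbegf was not tested.

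Tgfa, which encodes transforming growth factor alpha, an EGFR ligand of many epithelia, lies on chromosome 6 from 86195251 to 86275449. It stood at 42.4, 35.0 and 39.6 CPM in the naive and at 34.2, 39.7 and 30.5 CPM in the injured lungs. The groups overlapped (log2 fold change -0.17 ± 0.12 SE; 95% confidence interval -0.44 to 0.11; edgeR adjusted p = 0.558). Nrg1, the neuregulin gene that signals through ERBB3 and ERBB4, lies on chromosome 8 from 31818028 to 31918203. It stood at 4.24, 3.54 and 3.54 CPM in the naive and at 4.66, 5.18 and 3.21 CPM in the injured lungs. Injured replicate 3 was the lowest of all 6 lungs and injured replicate 2 the highest (log2 fold change 0.20 ± 0.24 SE; 95% confidence interval -0.33 to 0.73; edgeR adjusted p = 0.740). The interval of Nrg1 includes changes of more than 1.5-fold upwards, so these 6 lungs do not show that its level was the same.

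**Figure D2:**
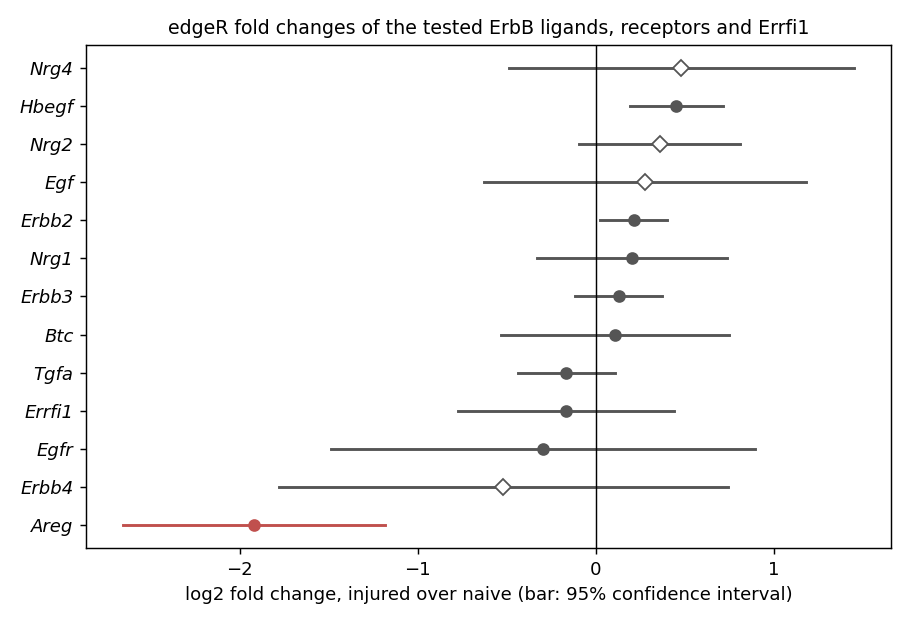
Log2 ratio of injured to naive level from edgeR (x axis) with 95% confidence intervals as bars, for the 9 tested family genes (filled circles) and 4 further tested ligands and receptors (open diamonds). The interval of Areg (red, called) runs from -2.66 to -1.19, while those of Hbegf (0.19 to 0.71) and Erbb2 (0.024 to 0.40) lie above 0 without a call after adjustment.

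Ligand levels were also compared per length, with the authors' deposited FPKM (fragments per kilobase of gene length, scaled to the total of each library). Among the 7 genes for EGFR ligands, Hbegf had the highest FPKM in all 6 lungs, followed by Tgfa. Hbegf made up 57.7, 61.0 and 51.4% of the summed ligand FPKM in naive replicates 1, 2 and 3, and 74.1, 64.6 and 70.4% in injured replicates 1, 2 and 3. Areg made up 13.002, 8.18 and 17.8% of the sum in the naive and 3.11, 3.34 and 3.03% in the injured lungs. Neither share overlapped between the groups. An exact two-sided permutation test gave p = 0.1 for both shares, which is the smallest p that 3 against 3 lungs allow. Both are parts of the same sum, so these p-values are not independent of each other. The ratio of Hbegf to Areg FPKM was 4.93 ± 2.32 in the naive group and 22.1 ± 2.42 in the injured group (SD, n = 3 each; exact permutation p = 0.1). Hbegf and Areg were already apart between the groups in opposite directions, so their ratio had to separate the groups. Its p-value adds nothing to the results of the single genes. The summed ligand FPKM was 36.5 ± 3.99 in naive and 40.8 ± 1.87 in injured lungs (SD, n = 3; exact permutation p = 0.2), and its ranges overlapped. Ereg made up 4.56% of the sum in injured replicate 3 and at most 0.367% in the other 5 lungs.

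**Figure D3:**
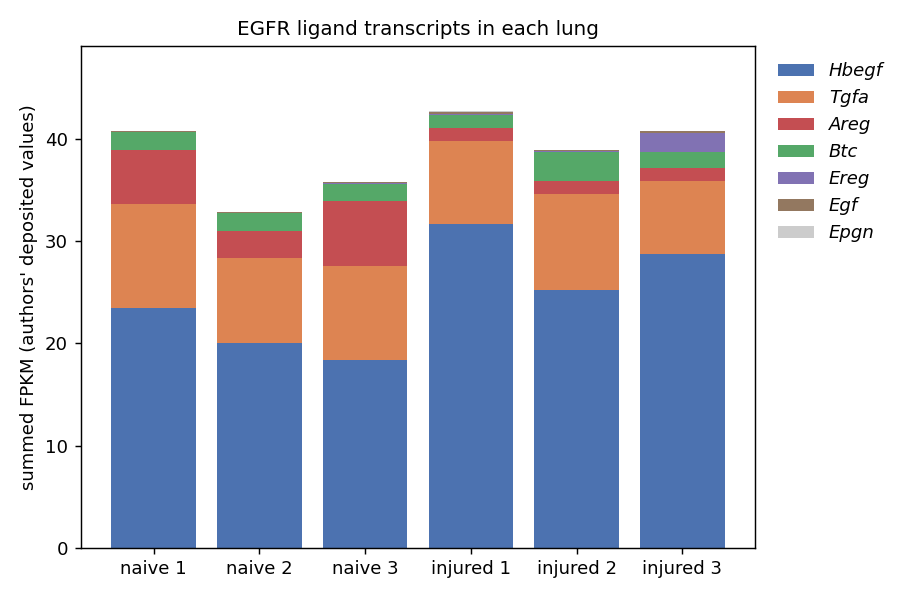
Summed FPKM of the 7 EGFR ligand genes in each lung (linear axis from 0), stacked by gene. Areg takes 8.18 to 17.8% of the bar in naive lungs and 3.03 to 3.34% in injured lungs, Hbegf is the tallest block in each, and an Ereg block of 4.56% is seen in injured replicate 3.

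Egfr encodes the receptor of these ligands and lies on chromosome 11 from 16752203 to 16918158. The naive lungs stood at 29.4, 26.6 and 74.4 CPM and the injured lungs at 30.6, 31.4 and 44.5 CPM. Naive replicate 3 held more than any other lung, and the other 2 naive lungs held less than all injured lungs. The log2 fold change was -0.30 ± 0.47 (SE; 95% confidence interval -1.49 to 0.89; edgeR adjusted p = 0.824), and without naive replicate 3 it was 0.34 (edgeR adjusted p = 0.365). A score of circadian clock genes (log2 level of 4 genes around Arntl minus that of 9 genes around Dbp and Per) was -4.16, -4.66 and -0.973 in naive and -1.06, -1.78 and -0.879 in injured replicates 1, 2 and 3. On this score naive replicate 3 lay among the injured lungs. With the score as a covariate the log2 fold change of Egfr was -0.96 ± 0.15 (SE) and was called (edgeR adjusted p = 0.0138). Naive replicate 3 was the only naive lung within the range of the injured scores, and it held the most Egfr. This call therefore depends on that single lung. The fibroblast marker sum was also highest in naive replicate 3, at 6954 CPM against 3326 to 5826 CPM in the other 5 lungs, with 4 of the 10 markers highest in that lung and 3 in injured replicate 3. Its part in the level of Egfr was not tested.

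Erbb2 and Erbb3 encode the receptor pair through which neuregulins act on airway and alveolar epithelium. Erbb2, on chromosome 11 from 98412470 to 98437716, stood at 57.0, 55.1 and 56.9 CPM in the naive and at 65.0, 69.1 and 61.6 CPM in the injured lungs. All injured lungs were above all naive lungs, by 0.21 ± 0.08 log2 units (SE; 95% confidence interval 0.024 to 0.40), which did not pass the test (edgeR adjusted p = 0.239). Over the 15 other settings its log2 fold change stayed between 0.17 and 0.25, with adjusted p from 0.204 to 0.487. Erbb3, on chromosome 10 from 128567523 to 128589652, stood at 95.3, 100.4 and 103.8 CPM in the naive and at 95.3, 125.5 and 106.4 CPM in the injured lungs. Its groups overlapped (log2 fold change 0.13 ± 0.11 SE; 95% confidence interval -0.12 to 0.37; edgeR adjusted p = 0.627). Its interval leaves room for at most a modest difference in either direction. Erbb4, the remaining receptor of the family, was scarce, at 0.738 ± 0.148 and 0.511 ± 0.436 CPM (SD, n = 3 each).

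Errfi1 encodes the feedback inhibitor MIG6, which binds active EGFR kinase and is itself induced by receptor signalling. It lies on chromosome 4 from 150853919 to 150868892. Errfi1 stood at 300.0, 158.7 and 205.7 CPM in the naive and at 154.8, 221.5 and 215.0 CPM in the injured lungs. The groups overlapped, with naive replicate 1 the highest (log2 fold change -0.17 ± 0.25 SE; 95% confidence interval -0.78 to 0.44; edgeR adjusted p = 0.811), and without that lung the log2 fold change was 0.11. Naive replicate 1 was also the library in which 13 of 14 immediate early genes had their highest level. Their summed level there was 2357 CPM, against 1273 and 1403 CPM in the other naive and 1027 to 1327 CPM in the injured lungs. The part of whatever raised these genes in the level of Errfi1 was not tested.

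Per length, Errfi1 had the highest FPKM of the family in both groups, 72.5 ± 24.2 in naive and 65.1 ± 12.1 in injured lungs (SD, n = 3 each). It was followed by Hbegf (20.7 and 28.5 FPKM), Erbb3 (16.5 and 18.2 FPKM), Erbb2 (11.2 and 13.1 FPKM) and Tgfa (9.18 and 8.27 FPKM), in the same order in both groups and with ranges that did not overlap between neighbours. Areg stood next in naive lungs, at 4.79 ± 1.89 FPKM, with a range that overlapped that of Egfr (4.21 ± 2.53 FPKM). In injured lungs Areg, at 1.29 ± 0.0489 FPKM, lay below Nrg2, Egfr, Nrg1 and Btc, and its range overlapped that of Btc alone among its neighbours in that order. Egfr, at 3.49 ± 0.761 FPKM in injured lungs, was less abundant per length than Erbb2 and Erbb3 in both groups.

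The other ligands and the remaining receptor of the family, given by a separate list of 6 genes, showed no call. Nrg3 was not found under that symbol, Epgn was too low to test, and of the 4 tested edgeR called 0, with 0 at an unadjusted p under 0.05 and 0 by DESeq2 or limma-voom. Nrg2, a neuregulin gene, had a log2 fold change of 0.36 ± 0.20 (SE), Nrg4 of 0.48 ± 0.43, Egf, the founding ligand, of 0.27 ± 0.40 and Erbb4 of -0.52 ± 0.56. Erbb4 was at -1.51 ± 0.54 (SE, edgeR adjusted p = 0.223) when injured replicate 3, the lung with the most Erbb4, was left out. Their intervals are wide, from -1.78 to 0.74 for Erbb4 and from -0.49 to 1.45 for Nrg4.

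Genes for ligand release, receptor turnover and the kinase cascade were not called by edgeR. Of 11 genes for ligand shedding 10 were tested, with 0 at an unadjusted p under 0.05, 0 by DESeq2 or limma-voom and a median log2 fold change of 0.086. Its most abundant members per length were Timp3, a metalloproteinase inhibitor, at -0.10 ± 0.13 (SE), and Adam9, a sheddase, at 0.08 ± 0.10. With the clock score as a covariate these became 0.18 for Timp3 and -0.06 for Adam9. Adam17, the main sheddase, stood at 78.3, 90.3 and 121.2 CPM in naive and 114.6, 105.7 and 126.5 CPM in injured lungs, and the groups overlapped. Of 16 genes that brake or recycle the receptors 2 had an unadjusted p under 0.05, against 16.7% of all genes tested, and 0 were called by DESeq2 or limma-voom. These were the ubiquitin ligase genes Cblb, at -0.35 and lower in every injured lung, and Cblc, at 0.46 and higher in every injured lung. Ptpn1, a phosphatase that acts on EGFR, was at 0.25 ± 0.12 and Usp8, a deubiquitinase of endosomes, at -0.02 ± 0.09. Of 24 adaptor and cascade genes 1 had an unadjusted p under 0.05 and 0 were called by DESeq2 or limma-voom. Mapk3, the gene of ERK1, was at 0.02 ± 0.09 and Akt1 at 0.16 ± 0.11, and the median log2 fold change of the list was 0.0041.

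Genes that respond to ERK signalling included 1 call. Of 16 tested, Ccnd1, the cyclin D1 gene, was called lower and 0 were called higher, with 4 at an unadjusted p under 0.05 (16.7% over all genes tested) and a median log2 fold change of -0.13. Ccnd1 stood at 168.6, 205.1 and 225.3 CPM in the naive and at 137.6, 139.9 and 126.1 CPM in the injured lungs. All injured lungs were below all naive lungs (log2 fold change -0.57 ± 0.11 SE, edgeR adjusted p = 0.0278). Leaving out naive replicate 2 or 3 or any of the injured replicates lost this call, with adjusted p up to 0.117. Dusp6, a phosphatase that switches ERK off and follows its activity, was at -0.21 ± 0.17 (SE), and its groups overlapped. Myc and Etv1 missed the threshold, at 0.70 ± 0.16 (edgeR adjusted p = 0.0555) and -0.52 ± 0.13 (edgeR adjusted p = 0.0728). Adam17, Cblb, Cblc, Dusp6, Myc and Etv1 were chosen after their values were seen. DESeq2 called 1 gene of the list higher and 2 lower, and limma-voom 0 and 1.

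The 14 immediate early genes, which many stimuli and tissue handling induce, had a median log2 fold change of -0.53, the lowest of these lists, and edgeR called 0. At an unadjusted p under 0.05 there were 2, DESeq2 called 1 lower and limma-voom 0. Dusp1, a stress-induced phosphatase, stood at 608, 185.5 and 236.5 CPM in naive and 192.4, 124.4 and 111.8 CPM in injured lungs, and Jun at -0.14 ± 0.10 log2 units (SE). When naive replicate 1 was left out, the median log2 ratio of mean CPM for the 14 genes was -0.23, against -0.53 with all libraries. For Areg the same omission left a log2 fold change of -1.86 ± 0.37 (SE, edgeR adjusted p = 0.0397). Areg was highest in naive replicate 3 (7.81 CPM, against 6.32 CPM in naive replicate 1). The part of tissue handling in the level of Areg was not tested.

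**Figure D4:**
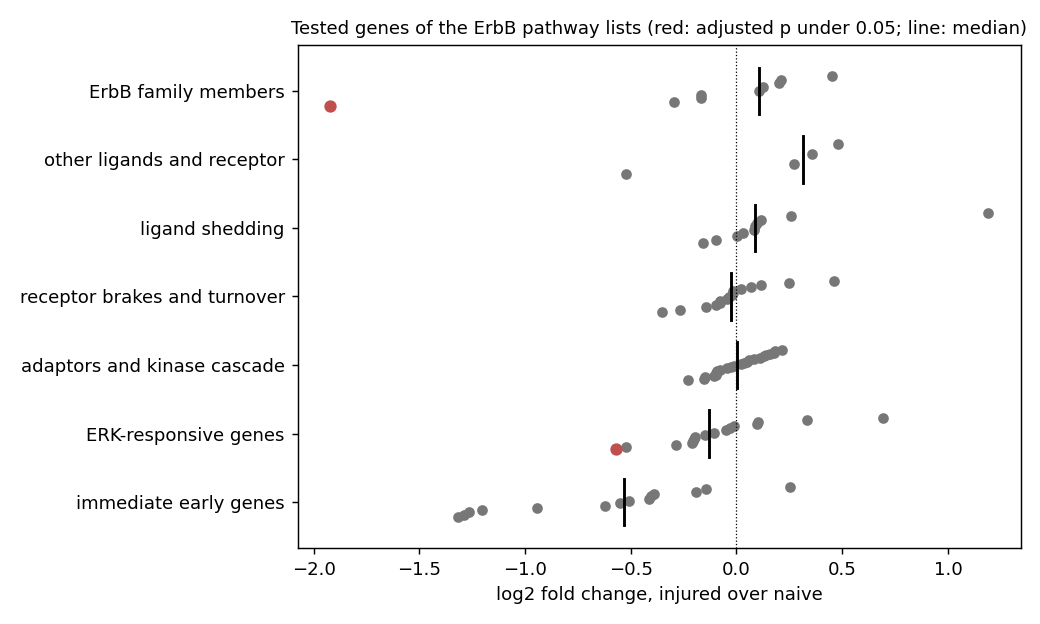
Log2 ratio of injured to naive level (x axis) for each tested gene of the 7 lists, a point per gene, with the list's median as a line and genes called by edgeR in red. Areg and Ccnd1 are the red points, the cascade genes lie close to 0 (median 0.0041) and the immediate early genes lie lowest (median -0.53).

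Over the 6 libraries the tested genes whose log2 CPM followed Areg most closely were Edc3 (Pearson r = 0.997), Cyp1a1 (r = 0.994) and Mlxip (r = 0.991). These values describe 6 points that fall into 2 groups and share the libraries' depth. The 3 genes were picked from all genes tested for following Areg, so lower levels in injured lungs follow from that choice. Edc3 and Cyp1a1 were also called lower, at log2 fold changes of -0.58 (edgeR adjusted p = 0.0184) and -2.75 (edgeR adjusted p = 0.00629), and Mlxip was at -0.39 (edgeR adjusted p = 0.0666). Genes that overlap a member in the table took few reads. Egfros, antisense to Egfr, had 7 counts in all against 6298 for Egfr, and 1700045H11Rik, antisense to Errfi1, had 1 against 32172. Mien1, whose end overlaps that of Erbb2 on the other strand, had 425 against 9011. The strand setting of the counting is not given in the sources used here, so reads in those overlaps cannot be assigned between partners.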

How the data were processed

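RNA from 6 mouse left lungs (3 naive, 3 injured) was sequenced as paired 150-base reads, per the labels' protocols. The authors deposited 1 table of whole-number read counts per gene. Its normalized signal equalled the deposited counts divided by 1 factor per library, and its deposited FPKM were recovered from counts, lengths and totals, both within a relative tolerance of 1e-06. The authors' log2 fold changes, p-values and adjusted p-values were used only where named as theirs. Per the submitters' processing notes, STAR, HTSeq, DESeq2 and edgeR were used with mm10. Their versions and settings are not known here.

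Counts passing filterByExpr (15486 genes) were scaled by TMM and compared with edgeR's robust quasi-likelihood test (edgeR 4.0.16, limma 3.58.1, R 4.3.3), two-sided, with Benjamini-Hochberg adjustment over all genes tested. The SE is the log2 fold change divided by the root of F. log2 CPM used a prior count of 1, and correlations were taken from it. The clock score came from a separate log2 CPM, scaled by TMM over all genes, also with a prior count of 1. DESeq2 1.42.0 and limma-voom were alternatives, with 2 other scalings, 2 other filters, the clock score as a covariate, the replicate number as a block and each library left out. The test was checked on simulated data with 100 genes changed by 1 log2 unit and 100 by 2 log2 units. It recovered 79 and 94 of these, and 14 of its 187 calls were false. Members and gene lists were chosen with earlier results of these data known. Named genes were all members, the called genes of each pathway list up to 5, or its 2 most abundant per length where none was called, each cell type's defining marker, overlapping genes and the 3 genes most correlated with the member of smallest p.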

Additional observations from a re-analysis of the deposited data

How the results depend on the processing

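The count of family genes called higher was 0 and became 1 with no filter on low counts, by DESeq2 and with the replicate block, in each case Hbegf. The count called lower was 1 and became 2 with the clock score as a covariate, where Egfr joined Areg in a call that depends on naive replicate 3. With 1 library left out, it ran from 0 to 1 lower and stayed at 0 higher. Over all genes 334 were called higher and 148 lower. DESeq2 gave 578 and 398, no filter gave 269 lower and the clock score 227 lower. With 1 library left out, calls ran from 145 to 333 higher and from 48 to 146 lower: 145 and 50 without naive replicate 2, 172 and 48 without injured replicate 1, 217 higher without naive replicate 1 and 88 lower without injured replicate 2. Areg kept its direction in all 15 settings and its call in 13.

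Direction turned for Btc without injured replicate 2 (-0.30, and -0.30 to 0.33 over the left-out libraries), Egfr without naive replicate 3 (0.34, range -0.55 to 0.34) and Errfi1 without naive replicate 1 (0.11, range -0.36 to 0.11). With the clock score it turned for Timp3 (0.18), Adam9 (-0.060), Akt1 (-0.013) and Usp8 (0.11). Usp8 also turned without naive replicate 1 or 2 or injured replicate 1 (range -0.092 to 0.023), and Mapk3 without naive replicate 1 or 3 or injured replicate 1 (range -0.017 to 0.076). None of these was called in either fit. The cause was not tested.

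Deviations of same-numbered lungs from their group means had correlations of 0.072, -0.088 and 0.148 for numbers 1, 2 and 3. Naive replicate 1 correlated best with injured replicate 2 (0.279). Deviations from a mean of 3 lungs tie these correlations to one another, so they cannot show whether the numbers pair the lungs. With the replicate block 413 genes were called higher and 208 lower, and Hbegf had an adjusted p of 0.0403 by edgeR. Leaving out a library lowers the number of libraries the filter asks for, so Ereg was tested in 4 such fits, with adjusted p from 0.200 to 0.552. Genes near 1 CPM, such as Nrg4, Egf and Erbb4, rest on few counts, and 3 lungs a group leave wide intervals.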
